A study of Homo sapiens with 6 samples.

Results

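The genes described here are AGT, which encodes angiotensinogen, and 8 genes for a receptor and for cell-surface proteases, most of which act on angiotensins (ACE, ANPEP, ENPEP, MME, LNPEP, DPP4, ATP6AP2 and TMPRSS2). They are 9 of the 26485 gene symbols in the count files and were found by their symbols. The set was chosen by results of the same comparison, in which AGT was among the genes lower with sgRNA #2, so the values of the 9 genes are given as a description with no test. The libraries came from A549, a line established from a human lung adenocarcinoma, that carried lentiviral dCas9-KRAB (a Cas9 without nuclease activity joined to the KRAB repressor domain) and rat Nkx2-1. In both groups, cells with dCas9-KRAB had been kept by 10 µg/ml puromycin and those with Nkx2-1 by their GFP. They received by transient transfection either synthetic sgRNA #2, directed at the first SFTPB intron (3 libraries), or the non-targeted sgRNA control (3 libraries). The sgRNA control cells thus also express dCas9-KRAB and Nkx2-1, the Nkx2-1 is of rat origin and driven by the PGK promoter of its vector, and cells without Nkx2-1 or without an sgRNA were not analysed here.

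In the renin-angiotensin system, angiotensinogen, a secreted serpin made mainly by the liver, is cut to angiotensin I. ACE removes a dipeptide from angiotensin I to give the pressor peptide angiotensin II, which acts on the receptor AGTR1. The membrane peptidases ENPEP, ANPEP, LNPEP and MME trim or degrade the angiotensins, and all of them, like ACE, are zinc metallopeptidases. DPP4 is a serine dipeptidyl peptidase, TMPRSS2 a transmembrane serine protease of airway and prostate epithelium, and ATP6AP2 the (pro)renin receptor, which is also an accessory subunit of the vacuolar proton pump.

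The target of sgRNA #2 is shown because it defines the perturbation, with its PAM in capitals. It lies on the minus strand at chr2:85668529-85668551 of GRCh38.
sgRNA #2 target: gggatgggaggggaacacccAGG
The sites near the starts of the 4 tested members that share most bases with its PAM-proximal end are shown beside it. They were taken within 1000 bp of the start of the canonical GENCODE transcript on either strand, with an NGG after the site, and the capitals mark the unbroken run of matching bases next to the PAM.
AGT: cagcctgaggccaacCACCCagg
ANPEP: agagacagggagcccCACCCtgg
LNPEP: tttgcccaccggccgCACCCcgg
ATP6AP2: accaggaaagacagACACCCtgg
The AGT site lies on the plus strand at chr1:230714426-230714448, -315 bp from the start, which is upstream. It matches 5 PAM-proximal bases and has 11 mismatches in all. A run of at least 5 matching bases was present in 48.8% of the 13000 windows of 2001 bp around the starts of tested genes that were placed on the genome. ATP6AP2 matched 6 bases, a run reached or exceeded in 9.45% of the windows, and its site lies on the plus strand at chrX:40580602-40580624. ANPEP and LNPEP matched 5 bases, at chr15:89815709-89815731 and chr5:96936408-96936430, both on the minus strand. The annotated AGT gene reaches upstream to chr1:230745576, beyond the window, and that part was not scanned. Within the windows, AGT held no longer run next to a PAM than ANPEP and LNPEP. Such a match is a description of the letters and does not show that dCas9 bound there.

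The reads counted on genes ranged from 6047554 to 7584611 per library. A count of 3, taken as the floor of detection, corresponded to 0.394 to 0.5 CPM, the usual scaling of counts to library size. SFTPB, the targeted gene, had 2683, 2877 and 3155 reads with the sgRNA control and 40, 42 and 49 with sgRNA #2. Its log2 fold change was -5.96 (SE 0.101, adjusted p = 5.56e-17 Benjamini-Hochberg, quasi-likelihood test of edgeR). The epithelial markers fixed for the check gave a summed 3590 to 4550 CPM in the sgRNA control libraries and 3380 to 4160 CPM with sgRNA #2. Most of it was KRT7, KRT8 and KRT18, while EPCAM averaged 8.41 CPM in the controls and KRT19 was below 1 CPM. Of the 5 tested epithelial markers 1, CDH1, was lower (log2 fold change -0.34, adjusted p = 0.00728 in edgeR). For KRT8 the value was -0.13 on the log2 scale (adjusted p = 0.684 in edgeR, 0.0235 when blocked by replicate number). The 6 hepatocyte markers, checked because the liver is the main source of AGT, summed to 1.43 to 2.10 CPM in the control libraries and 0.999 to 1.65 CPM with sgRNA #2. APOA2 was at 0 in every library and ALB, the defining hepatocyte marker, averaged 0.282 CPM in the controls. Endothelial markers summed to at most 0.850 CPM, fibroblast markers to at most 10.0 CPM, most of it COL1A1, and leukocyte markers to at most 4.82 CPM, with PTPRC at 0. In each of these 5 marker lists the summed levels of the groups overlapped.

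AGT was lower with sgRNA #2. It had 12, 16 and 28 reads in the controls and 6, 2 and 2 with sgRNA #2, or 1.91, 2.27 and 3.68 CPM against 0.853, 0.3 and 0.333 CPM. All 3 sgRNA #2 libraries lay below all 3 control libraries, with replicate 3 the highest of the controls and replicate 1 the highest of the sgRNA #2 libraries. The mean fell from 2.62 ± 0.936 CPM (SD, n = 3) to 0.496 ± 0.31 CPM (SD, n = 3). The log2 fold change was -2.35 (SE 0.464). Replicates 2 and 3 of sgRNA #2, at 2 reads each, were under the floor of 3 reads. The sgRNA #2 mean and the size of the fold change are uncertain to that extent. Over the summed counts, 56 against 10 reads, the ratio of sgRNA #2 to control was 0.190 (95% exact Clopper-Pearson interval 0.0864 to 0.376), an interval that covers counting error only. In such bulk samples, fewer cells with the transcript and less transcript per cell cannot be told apart.

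AGT was 1 of the 4 tested members and the single one past both cut-offs used for calls, a log2 fold change of at least 1 in size and an adjusted p under 0.05. Among all 13356 tested genes, 0.719% passed these cut-offs and 0.689% passed them in the lower direction. The groups did not overlap, with sgRNA #2 below, in 8.83% of tested genes, and AGT was the single member of the 9 without overlap. Because the set was chosen with this result known, nothing is read from these counts. AGT also entered the test only through the group where it was high, since a gene needed at least 10 counts in at least 3 libraries and no sgRNA #2 library reached 10. Its mean of 11 counts over the 6 libraries was higher than that of just 1.98% of tested genes.

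**Figure D1:**
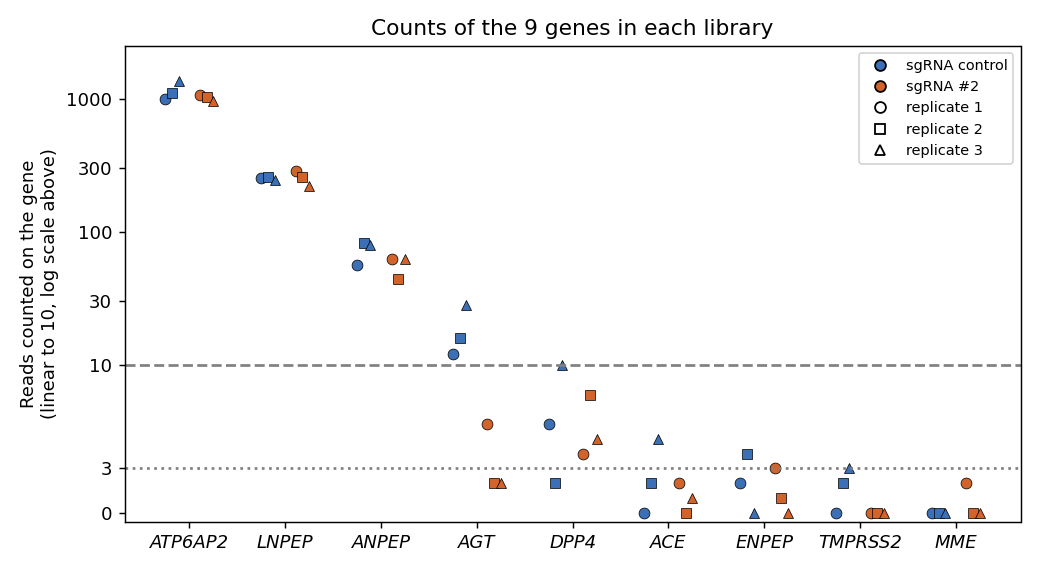
Reads counted on each of the 9 genes (horizontal axis, ordered by mean control level) in the 3 sgRNA control and 3 sgRNA #2 libraries, with a symbol for each replicate; the vertical axis is linear to 10 counts and logarithmic above. The dotted line marks the floor of 3 counts and the dashed line the 10 counts of the filter, and AGT is the gene whose control libraries (12 to 28 counts) lie above that filter while its sgRNA #2 libraries (2 to 6 counts) lie below it.

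In GENCODE release 44 on GRCh38, AGT is a minus-strand gene at chr1:230690776-230745576, and its canonical transcript has 5 exons. In this annotation the gene overlaps an unnamed lncRNA gene on the same strand and the 3′ end of COG2 on the other strand. RefSeq places the start of its span at 230702523, beyond the end of COG2 at 230693982. The strand setting of the counting is not stated, so reads of overlapping genes may not be told apart. COG2, a subunit of a Golgi tethering complex, had 265, 275 and 298 reads in the controls and 258, 259 and 233 with sgRNA #2. Its log2 fold change was -0.07 (SE 0.0893, adjusted p = 0.861 from the edgeR test), and its sgRNA #2 libraries at 36.7 to 38.9 CPM were just below the controls at 39.0 to 42.2 CPM.

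Of the 9 listed genes with a start within 500 kb of that of AGT, 6 were tested, and 0 passed both cut-offs in edgeR or had an adjusted p under 0.05 in DESeq2. In edgeR, an unadjusted p under 0.05 was reached by 1489 of all 13356 tested genes and by 1 of the 6. This gene was TRIM67, a tripartite motif protein gene whose start lies 448 kb from that of AGT. TRIM67 was higher with sgRNA #2, with 18, 19 and 29 reads in the controls and 41, 34 and 45 with sgRNA #2. Its log2 fold change was 0.95 (SE 0.244, adjusted p = 0.0440 from the edgeR test), just short of the fold change cut-off, and the annotation has an antisense gene, TRIM67-AS1, across it. It was over that cut-off without control replicate 3 (1.13, adjusted p = 0.0424 in edgeR) or without sgRNA #2 replicate 2 (1.07, adjusted p = 0.0437 in edgeR). Without control replicate 1 or 2 the adjusted p was 0.116 or 0.181, and without sgRNA #2 replicate 1 or 3 it was 0.110 or 0.180 in edgeR, with log2 fold changes of 0.80 to 0.99. The adjusted p was 0.126 in DESeq2, and 5.89e-04 in edgeR when blocked by replicate number (log2 fold change 0.97). The sign for TRIM67 was the same in these fits, while an adjusted p under 0.05 depended on the libraries kept and on the fit. Across all tested genes, an adjusted p under 0.05 with no fold change cut-off was reached by 2.69%. C1orf198, TTC13, ARV1 and FAM89A, the other tested neighbours, had log2 fold changes of -0.02, 0.21, 0.07 and 0.15, with SE between 0.0714 and 0.130 and adjusted p of at least 0.614 from the edgeR test. PGBD5, whose start lies at -288 kb from that of AGT and which was not tested, had 10, 15 and 8 reads in the controls and 8, 3 and 5 with sgRNA #2. Its ratio over summed counts was 0.516 (interval 0.265 to 0.964, counting error only), and the groups overlapped. CAPN9 and MIR1182, the other untested neighbours, had no reads.

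**Figure D2:**
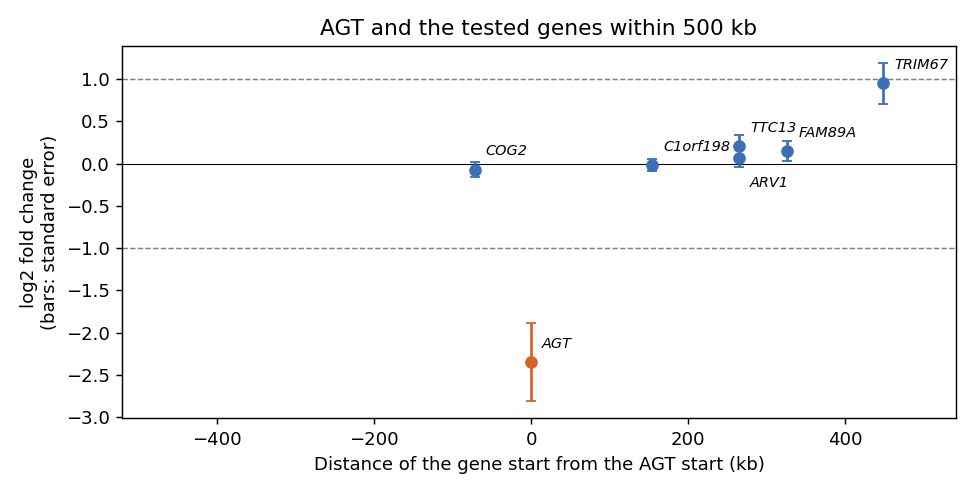
Log2 fold change with sgRNA #2 (vertical axis, bars are standard errors) of AGT and of the 6 tested genes within 500 kb, against the distance of each gene's start from that of AGT in kb. AGT is at -2.35, TRIM67 is at 0.95 and the other 5 lie between -0.07 and 0.21; dashed lines mark the cut-off of 1 in size.

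The other members with enough reads to be tested were ATP6AP2, LNPEP and ANPEP, and none of them passed a cut-off in edgeR. ATP6AP2, the (pro)renin receptor, is at chrX:40579372-40606848 on the plus strand and overlaps no other annotated gene. It was by far the most abundant, with 1003, 1116 and 1355 reads in the controls and 1076, 1039 and 960 with sgRNA #2. On the CPM scale these were 160, 158 and 178 against 153, 156 and 160, so the groups touched at replicate 3 of sgRNA #2 and replicates 1 and 2 of the control. Its log2 fold change was -0.08 (SE 0.0672).

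LNPEP encodes the insulin-regulated aminopeptidase, also known as oxytocinase and as a binding site of angiotensin IV, and is at chr5:96935394-97037513 on the plus strand, with an antisense lncRNA. It had 255, 258 and 245 reads in the controls and 288, 259 and 222 with sgRNA #2. The levels were 36.5 ± 4.20 CPM (SD, n = 3) and 38.9 ± 1.99 CPM (SD, n = 3), with overlapping ranges, and the log2 fold change was 0.10 (SE 0.101).

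ANPEP, or aminopeptidase N, removes neutral residues from the N-terminus of peptides, angiotensin III among them, and its gene is at chr15:89784895-89815401 on the minus strand with no overlapping gene. It had 56, 82 and 80 reads in the controls and 63, 44 and 63 with sgRNA #2, and the groups overlapped. The levels were 10.4 ± 1.36 CPM (SD, n = 3) and 8.69 ± 1.96 CPM (SD, n = 3), with a log2 fold change of -0.26 (SE 0.186). Replicate 2 of sgRNA #2 was the lowest library, and the log2 fold change was -0.10 without it and -0.41 without sgRNA #2 replicate 3.

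The remaining 5 members were at or near the floor and were not tested. DPP4, at chr2:161992245-162074394 on the minus strand, had 6, 2 and 10 reads in the controls and 4, 8 and 5 with sgRNA #2. Its ratio over summed counts was 1.00, with an interval of 0.486 to 2.07 that leaves a change of about 2-fold in either direction undetectable at this depth. ACE, the converting enzyme gene at chr17:63477061-63498380 on the plus strand, had 0, 2 and 5 reads in the controls and 2, 0 and 1 with sgRNA #2, a ratio of 0.456 (interval 0.0761 to 2.00). ENPEP, aminopeptidase A, which turns angiotensin II into angiotensin III, is encoded at chr4:110365733-110565285 on the plus strand and had 2, 4 and 0 counts against 3, 1 and 0, a ratio of 0.709 (interval 0.147 to 2.99). TMPRSS2, at chr21:41464300-41531116 on the minus strand, had 0, 2 and 3 reads in the controls and 0 in each sgRNA #2 library, and MME, or neprilysin, at chr3:155024124-155183704 on the plus strand, had 0 in each control library and 2, 0 and 0 with sgRNA #2. Each library was at or under the floor for TMPRSS2 and MME, so no ratio is given. A difference of about 2-fold or less was thus not detectable at this depth for any of these 5 genes, and larger differences were not tested.

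The spread between libraries was set beside that of counting alone, and in the controls it was larger for all 8 members with reads there. For AGT the coefficient of variation of the CPM values was 35.7% in the controls and 62.6% with sgRNA #2, beside 23.1% and 54.8% for counting error at its mean counts. For ATP6AP2 it was 6.73% and 2.20%, beside 2.94% and 3.12%. For LNPEP it was 11.5% and 5.12%, beside 6.29% and 6.25%. For ANPEP it was 13.1% and 22.5%, beside 11.7% and 13.3%, and for DPP4 61.5% and 36.6%, beside 40.8% and 42.0%.

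Levels of different genes were compared as CPM per kilobase of the exons annotated in GENCODE release 44. In the sgRNA control libraries ATP6AP2 came first with 17.3 ± 1.17 (SD, n = 3) CPM per kilobase. LNPEP followed with 2.44 ± 0.281 (SD, n = 3) CPM per kilobase, ANPEP with 2.05 ± 0.269, AGT with 0.206 ± 0.0737 and DPP4 with 0.0590 ± 0.0363. The ranges of LNPEP and ANPEP overlapped, so these neighbours did not differ beyond their spread, while those of ATP6AP2 and LNPEP, of ANPEP and AGT, and of AGT and DPP4 did not overlap. ENPEP, ACE and TMPRSS2 lay between 0.0343 and 0.0382 CPM per kilobase with overlapping ranges, and MME was at 0. With sgRNA #2, AGT had 0.0390 ± 0.0244 CPM per kilobase (SD, n = 3) and came after DPP4 with 0.0601 ± 0.0220, and the ranges of these 2 genes overlapped.

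The annotated exons of AGT span 12703 bp, against 2116 bp for its canonical transcript and 1428 bp of coding sequence, so its level depends on the length taken. Per kilobase of canonical transcript, AGT had 1.24 ± 0.443 (SD, n = 3) CPM in the controls and ATP6AP2 had 73.7 ± 4.96. The order of ATP6AP2, LNPEP, ANPEP, AGT and DPP4 in the controls was the same with all 3 lengths, but per kilobase of coding sequence LNPEP, at 11.9 ± 1.37 (SD, n = 3) CPM, no longer overlapped ANPEP, at 3.57 ± 0.468. ATP6AP2 and LNPEP together made up 92.7 to 95.9% of the reads counted on the 9 genes.

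**Figure D3:**
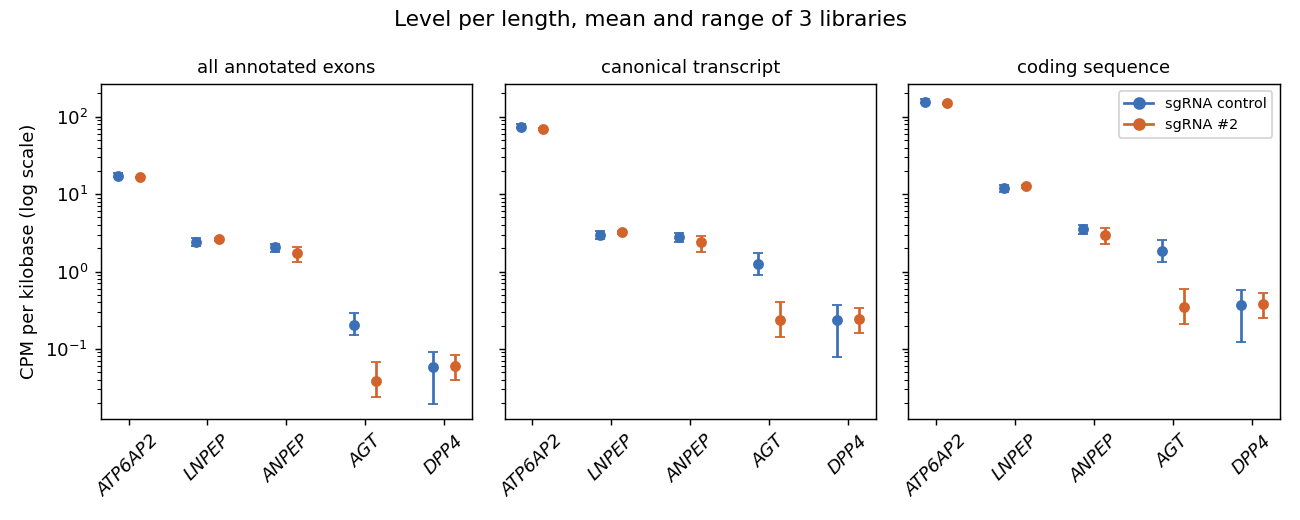
CPM per kilobase on a log axis for the 5 best counted members, with the length taken as all annotated exons, the canonical transcript or the coding sequence (panels); points are means and bars the range of the 3 libraries of each group. ATP6AP2 is highest in each panel, and AGT lies above DPP4 in the control libraries and overlaps it with sgRNA #2.

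The other genes of the system were described from lists of the pathway and of the families of the members. Of 19 further renin-angiotensin genes, 8 had no read in any library, among them MAS1, a receptor gene of the system, and CMA1, the gene for the angiotensin-forming chymase. A count of 0 allows up to 0.5 CPM in the shallowest library. Of the 9 that were tested, 0 passed both cut-offs in edgeR or DESeq2. In edgeR, 3 had an unadjusted p under 0.05 and 1, CTSD, had an adjusted p under 0.05. Over all 13356 tested genes, 1489 had an unadjusted and 359 an adjusted p under 0.05 in edgeR. The median log2 fold change of the 9 was -0.060, against 0.003 over all tested genes.

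AGTR1, which encodes the main receptor of angiotensin II, was detected in each library, with 65, 75 and 90 counts with the sgRNA control and 58, 51 and 51 with sgRNA #2. Its levels of 10.4, 10.6 and 11.8 CPM in the controls were all above the 8.25, 7.66 and 8.50 CPM with sgRNA #2. The groups did not overlap, in either direction, in 15.6% of tested genes. The log2 fold change was -0.43 (SE 0.158, adjusted p = 0.245 in edgeR), which does not pass the threshold. CTSD, the gene of the lysosomal aspartic protease cathepsin D, which can release angiotensin I from angiotensinogen in vitro, was lower with sgRNA #2. Its levels were 776, 904 and 914 CPM in the controls and 637, 626 and 738 CPM with sgRNA #2, and the log2 fold change was -0.37 (SE 0.0788, adjusted p = 0.0118 from the edgeR test). In edgeR the adjusted p of CTSD was 0.0614 without control replicate 2 and 0.0504 without control replicate 3. It was 0.0920 without sgRNA #2 replicate 1 and 0.0781 without sgRNA #2 replicate 2, with log2 fold changes of -0.34 to -0.33 in these fits. Without control replicate 1 or sgRNA #2 replicate 3 it was 0.00353 or 0.00214 in edgeR, with a log2 fold change of -0.45 in each. It was 8.27e-04 in DESeq2 and 6.44e-17 in edgeR when blocked by replicate number. AGTRAP, which binds AGTR1 and promotes its internalization, had a log2 fold change of -0.18 (SE 0.0868, adjusted p = 0.441 from the edgeR test). Among the enzymes that cut angiotensins inside the cell or in the lysosome, NLN had a mean of 317 CPM in the controls, PRCP 117 and THOP1 89.7 CPM. The log2 fold changes of NLN, PRCP and THOP1 were 0.05, -0.06 and -0.09, with adjusted p of at least 0.743 from the edgeR test. DPP3, CTSA and PREP of the same list were lower, at means of 77.6, 46.1 and 34.9 CPM in the controls.

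Of 10 genes of the related kallikrein-kinin system, 5 were tested and 1 had an adjusted p under 0.05. This was the gene of carboxypeptidase M, a membrane enzyme that removes the C-terminal arginine of kinins and is abundant in lung epithelium. It had 781, 910 and 930 reads in the controls and 637, 633 and 575 with sgRNA #2, and the log2 fold change was -0.42 (SE 0.0657, adjusted p = 9.52e-04 from the edgeR test). In the annotation it overlaps MDM2 on the other strand, so its counts are uncertain to that extent. The bradykinin receptor genes BDKRB2 and BDKRB1 had log2 fold changes of 0.01 (SE 0.133) and 0.08 (SE 0.267), with adjusted p of at least 0.946 from the edgeR test. KNG1, the kininogen gene, had no reads.

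Among the tested relatives of the members described next, 0 passed both cut-offs in edgeR or DESeq2. PHEX, TMPRSS9, SERPINA1 and SERPINA6 were those with an unadjusted p under 0.05 in edgeR, which 1489 of all 13356 tested genes had. The aminopeptidase family of LNPEP, ANPEP and ENPEP has 9 other genes in the list, of which 8 were tested, with log2 fold changes between -0.28 and 0.06. RNPEP, NPEPPS and AOPEP, which the files list as C9orf3, were the most abundant at means of 166, 159 and 154 CPM in the controls. None of the 8 had an unadjusted p under 0.05 in edgeR. In the neprilysin family, ECE1, an endothelin-converting enzyme gene, had a log2 fold change of -0.03 (SE 0.0745) and PHEX, which acts in bone mineralization, of -0.63 (SE 0.179, adjusted p = 0.0750 in edgeR, 0.00244 when blocked by replicate number). DPP8 and DPP9, relatives of DPP4, had log2 fold changes of -0.04 and 0.03, while FAP had at most 2 reads in a library and DPP6 and DPP10 had no reads.

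Of 17 other transmembrane serine protease genes related to TMPRSS2, 8 had no reads and 1, TMPRSS9, was tested. TMPRSS9 had a mean of 1.43 CPM in the controls and 2.83 CPM with sgRNA #2, a log2 fold change of 0.98 (SE 0.314, adjusted p = 0.146 in edgeR, 0.0393 when blocked by replicate number). ST14, the matriptase gene, averaged 0.326 CPM in the controls. SPINT2, an inhibitor of such proteases, was at a mean of 272 CPM in the controls with a log2 fold change of 0.01 (SE 0.0619). ATP6AP2 is also a subunit of the proton pump, and of 23 further genes of this pump 20 were tested. Their log2 fold changes lay between -0.08 and 0.36 with a median of 0.060, 15 were above 0, and 0 had an unadjusted p under 0.05 in edgeR or passed in DESeq2.

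AGT belongs by structure to the clade A serpins. Of 10 others, 2 had enough reads to be tested. SERPINA1, the gene of alpha-1 antitrypsin, had 4.46, 5.67 and 3.81 CPM in the controls and 2.42, 3.15 and 2.00 CPM with sgRNA #2, with no overlap of the groups. Its log2 fold change was -0.87 (SE 0.270, adjusted p = 0.128 in edgeR, 0.0107 when blocked by replicate number). SERPINA6, which encodes corticosteroid-binding globulin, had 17, 24 and 13 reads in the controls and 11, 11 and 2 with sgRNA #2. Its log2 fold change was -1.08 (SE 0.423, adjusted p = 0.289 from the edgeR test). With the block it was -1.12 (adjusted p = 0.0210 from edgeR), so that SERPINA6 passed both cut-offs in that fit alone. Both values rest on few reads, and neither gene passed in the fit without the block.

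The list of 14 factors known to bind or regulate the AGT promoter in liver or other cells was tested in full. HNF4A, a nuclear receptor of hepatocytes and gut epithelium, was the single one to pass both cut-offs in edgeR. It had 670, 785 and 843 reads in the controls and 367, 330 and 339 with sgRNA #2, or 107, 111 and 111 CPM against 52.2, 49.6 and 56.5 CPM. Within each group the levels were close, and the groups did not overlap. The log2 fold change was -1.06 (SE 0.0739, adjusted p = 4.86e-08 in edgeR), and HNF4A ranked 18 by p-value. In the annotation HNF4A overlaps the antisense gene HNF4A-AS1. CEBPB, an acute-phase factor, had a log2 fold change of -0.29 (SE 0.0773, adjusted p = 0.0607 in edgeR, 2.93e-05 when blocked by replicate number). The abundant NR3C1, the glucocorticoid receptor gene, and STAT3 had log2 fold changes of 0.07 and 0.00 (SE 0.0603 and 0.0692), and CEBPA had a value of -0.06 (SE 0.0935). Of the 14 factors, 12 had a log2 fold change below 0, with a median of -0.058 against 0.003 over all tested genes. Whether the lower HNF4A has a part in the level of AGT was not tested. The list was chosen with earlier results of these data known, so the call of HNF4A within it is a description.

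Over all these lists, 66 genes other than the members were tested. Of them, 1 passed both cut-offs and 3 (HNF4A, CTSD and the carboxypeptidase M gene) had an adjusted p under 0.05 in edgeR, each of them lower with sgRNA #2. The 1 call among 66 genes stands beside 0.719% of all tested genes. As the lists were chosen with earlier results of these data known, nothing is read from this count. With the replicate number as a block, 8 of the 66 had an adjusted p under 0.05, 7 of them lower. Over all tested genes, 359 reached it without the block, 297 of them lower, and 1339 with it, 809 of them lower. In 56 of the 66 genes the log2 fold change was under 0.3 in size.

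**Figure D4:**
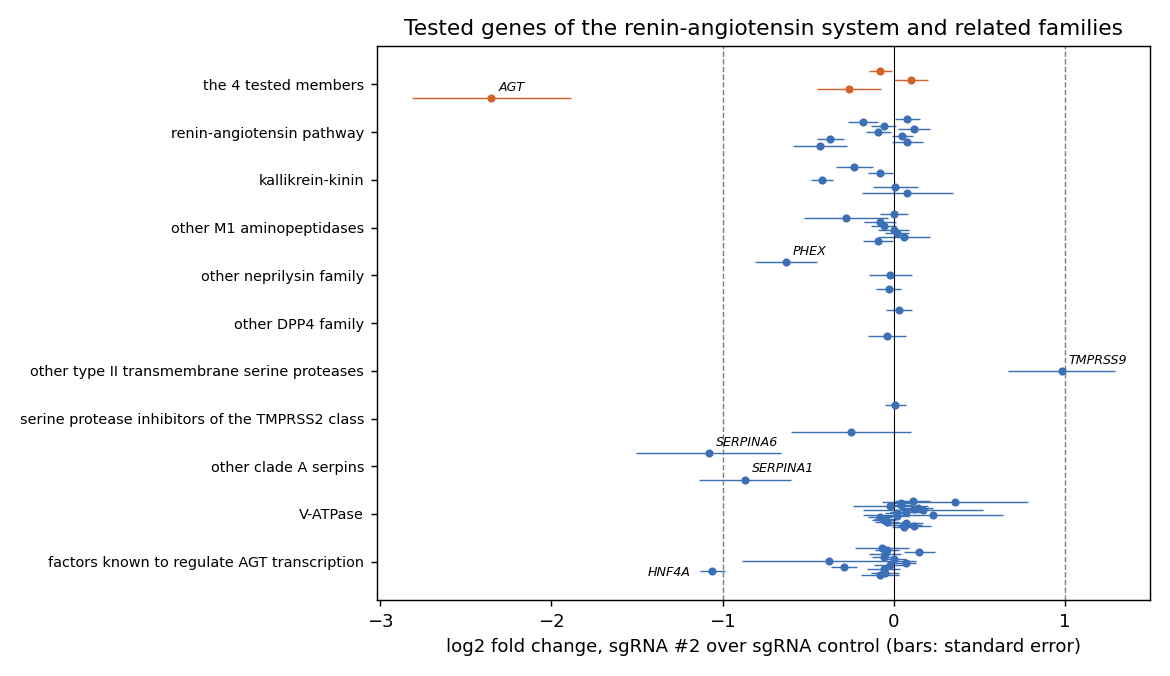
Log2 fold change with sgRNA #2 (horizontal axis, bars are standard errors) of the 4 tested members and of the tested genes of each list (rows); dashed lines mark the cut-off of 1 in size, and genes at 0.6 or more in size are named. AGT is at -2.35 and HNF4A at -1.06, while 56 of the 66 genes of the other lists lie within 0.3 of 0.

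The genes most like AGT across the 6 libraries were sought among 13354 tested genes with a mean of at least 1 CPM. The measure was the root mean square difference of log2(CPM + 0.5) centred on its mean. The 5 nearest were BCAS1, COL15A1, HOXC8, HHIPL2 and TRPV2, with differences of 0.244, 0.252, 0.265, 0.323 and 0.342, against a median of 0.902 over all genes compared. Each had lower counts in all 3 sgRNA #2 libraries than in the controls. Their log2 fold changes lay between -2.18 and -1.74, against -2.35 for AGT. The 0.5 added to the CPM narrows differences at low levels, such as those of AGT with sgRNA #2. The 5 genes were picked for this pattern, so no test of them is given. BCAS1 had 10, 13 and 17 reads in the controls and 7, 2 and 2 with sgRNA #2, a pattern near that of AGT also in depth. COL15A1, a collagen chain gene, had 33, 28 and 55 reads in the controls and 15, 8 and 4 with sgRNA #2. With 6 libraries, such likeness mainly reflects the size of the difference between the groups.

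**Figure D5:**
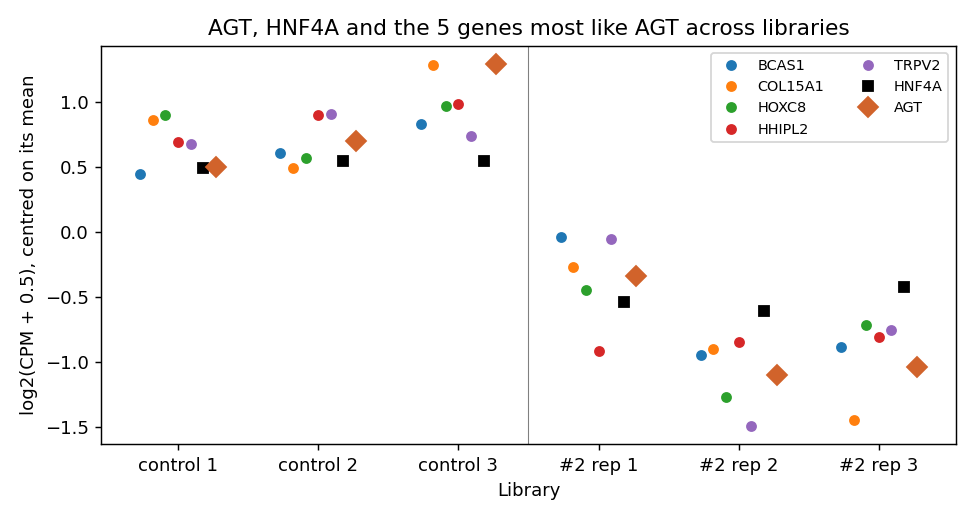
Level of AGT, HNF4A and the 5 genes most like AGT in each library (horizontal axis), as log2(CPM + 0.5) centred on the mean of each gene; each point is 1 library and replicates have no order. AGT lies between 0.49 and 1.29 in the controls and between -1.10 and -0.34 with sgRNA #2. HNF4A was added to the figure and is not among the 5 genes picked by likeness.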

How the data were processed

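RNA-seq was analysed in 6 libraries of A549 cells, 3 per group, grouped and numbered by the sample labels. The deposited values are counts of reads on each symbol, which the authors obtained with HTSeq and did not normalize; the submitters' processing notes also name Trim Galore, FastQC, Bowtie2 2.3.3.1, SAMtools, Picard and the build hg38. The annotation and strand setting are not given in the sources used here. Reads outside genes (19.7 to 21.1% of counted reads) and ambiguous reads (2.61 to 2.75%) were left out. Tests used R 4.3.3 and edgeR 4.0.16 (TMM, quasi-likelihood) on 13356 genes that reached 10 counts in 3 or more libraries, with the study's cut-offs of 1 on the log2 scale and 0.05 on the Benjamini-Hochberg adjusted p. The standard error is the log2 fold change divided by the root of the F statistic. The study describes the triplicates as biologically independent. The fit was tested on simulated data.

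Alternatives were DESeq2 1.42.0, other size factors and count filters, no fold change cut-off, each library left out (with the same genes tested) and the replicate number as a block. Same-numbered libraries of the 2 groups deviated together from their group means (correlations 0.281, 0.295 and 0.301 over tested genes), all above the limit of 0.1, so the numbers were taken to pair the samples. The main fit leaves this pairing out, and only the fit with the block uses it. With the block, p-values rest on the trended dispersion alone.

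Positions and lengths are from GENCODE release 44 on GRCh38, which matched 24270 of 26485 symbols, 1347 of them through an older symbol. The sgRNA sequence was read from the paper's supplementary file and the sites from the genome. The genes and lists were chosen with earlier results of these data known. Named genes were the members, list genes past a threshold or most abundant in their list, tested genes near AGT, and the 5 most like AGT; further list genes were named after their values were seen, and some list genes are not reported here.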

Additional observations from a re-analysis of the deposited data

How the results depend on the processing

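The log2 fold change of AGT lay between -3.0 (without sgRNA #2 replicate 1) and -2.01 (without control replicate 3) in the 12 alternative fits that included it. These fits use the same reads that chose the gene, so they are a description and no support. Requiring 10 counts in every library left AGT untested, so that 0 members were called, and called 63 genes in all against 96. A filter on the mean over all 6 libraries, added after seeing the data, gave -2.35 for AGT. ANPEP ranged from -0.41 to -0.10, LNPEP from 0.02 to 0.18 and ATP6AP2 from -0.11 to -0.02 when each library was left out, and none of them was called. In the same fits 78 to 104 genes were called, and of the genes near AGT 0 to 1, which was TRIM67. Without the fold change cut-off, 359 genes were called, among them 3 of the lists and 1 near AGT. With the replicate block, 122 genes were called and 2 of the lists, HNF4A and SERPINA6, and 1 member, AGT, as without the block. Adjusted p-values of TRIM67 and CTSD under 0.05 were each lost in 4 of the 6 fits that leave out a library. HNF4A stayed between -1.10 and -1.01 with each library left out. By coding length 6 and by canonical transcript length, also added after seeing the data, 7 of the 9 members kept their rank. Depth limits AGT with sgRNA #2, where replicates 2 and 3 had 2 reads each, under the floor of 3. It also limits 5 other members of the 9, whose counts did not exceed 10 in any library.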
